A study of Mus musculus with 18 samples.

Results

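Collagens are the proteins that give connective tissue and basement membranes their strength, and 44 genes of the collagen chains were found among the 24054 genes of each tissue table by their symbols (Col, a number, the letter a and a number). Collagen-like proteins with other symbols were not included. By structure, 11 of the 44 genes were fibrillar collagens, 8 were basement membrane collagens (types IV, XV and XVIII), 9 were FACIT collagens (fibril-associated collagens with interrupted triple helices) and 16 were other collagens. RNA-Seq was compared between WT and THRB K146Q mice in hypothalamus, pituitary and thyroid, with 3 mice of each genotype in each tissue, 18 libraries in all. The K146Q mice were homozygous whole-body knock-ins with an A-to-C change in Thrb, the gene of thyroid hormone receptor β, that replaces a lysine used for sumoylation in all receptor isoforms, so the mutation was not limited to any of the 3 tissues. All mice were untreated, 3 months old and of the strain labelled C57BL/Ntac, WT mice came from the same substrain, and the study worked with male mice by default. WT mice carry the numbers 1, 2 and 43 and K146Q mice the numbers 60, 62 and 83, and values are given in that order throughout. The libraries held 14902330 to 21230050 reads, and 3 reads in a library correspond to 0.133 to 0.190 normalised CPM (read counts scaled to a common library size).

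A collagen molecule is a triple helix of 3 chains, and each chain is built from repeats of glycine and a pair of other residues, often proline and hydroxyproline. Fibrillar collagens such as types I, III and V assemble into the fibrils of the stroma, and type IV forms the sheet-like network of the basement membrane on which epithelial and endothelial cells rest. Types XV and XVIII link basement membranes to the stroma, FACIT collagens coat fibrils, type VI forms beaded microfilaments, type VIII forms short-chain networks in vessel walls, and types XIII, XVII, XXIII and XXV are anchored in the cell membrane. In the thyroid, basement membranes surround every follicle and its dense capillary bed.

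The repeat is what all members share, and its length sets the fibrillar class apart from the others. The longest uninterrupted run of Gly-X-Y triplets in the coding sequence (GENCODE M21) had a median of 338 triplets in the fibrillar genes, with a range of 216 to 344. The runs were shorter in basement membrane collagens (30 to 66), FACIT collagens (32 to 113) and the other collagens (23 to 87), and their ranges overlap. Stretches of 10 triplets are printed for Col1a1, the most abundant type of fibrillar chain in most connective tissue, and for Col25a1, the membrane collagen with the largest difference in these data, with the first bases of each glycine codon in capitals.
Col1a1, codons 168 to 197: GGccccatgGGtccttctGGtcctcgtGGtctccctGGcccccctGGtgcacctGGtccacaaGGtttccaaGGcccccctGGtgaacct
Col25a1, codons 529 to 558: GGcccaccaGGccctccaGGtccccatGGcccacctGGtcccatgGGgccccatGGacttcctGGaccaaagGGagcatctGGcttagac
Both stretches begin every triplet with glycine, whereas the longest run was 338 triplets in Col1a1 and 40 in Col25a1.

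The summed collagen level of the WT tissues was highest in the thyroid. All 44 genes together reached 4273, 3597 and 4307 CPM in the WT thyroid, 1310, 1391 and 1436 CPM in the WT pituitary and 922, 944 and 911 CPM in the WT hypothalamus. The WT mean was highest in the thyroid for 22 genes, in the hypothalamus for 14 and in the pituitary for 8. Per kilobase of exon, Col4a1 (102 ± 4.21 CPM per kb, SD, n = 3) and Col4a2 (91.1 ± 3.57) led in the WT thyroid, followed by Col18a1 (80.9 ± 29.9) and Col3a1 (71.6 ± 13.7). These are the main basement membrane chains and the fibrillar chain of soft tissue. The WT pituitary was led by Col1a2 (57.2 ± 7.19 CPM per kb) and the WT hypothalamus by Col4a2 (21.7 ± 0.562) and Col25a1 (19.95 ± 1.03), and Col25a1 is known as a protein of neurons. The tissue labels fitted their markers in WT libraries, since Tg (thyroglobulin) averaged 333547 CPM in the thyroid, Gh (growth hormone) 145434 CPM in the pituitary and Slc17a6 (a glutamate transporter of neurons) 309 CPM in the hypothalamus. The thyroid libraries also held parathyroid, fat and skeletal muscle transcripts, with values given below.

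In the thyroid, many more collagen genes rose than fell in K146Q mice, among them the chains of types I, III, V and VIII and the main type IV pair. A filter on low values (3 or more of the 6 libraries at 0.5 CPM or above) kept 41 of the 44 genes, of which 22 rose, 4 fell and 15 did not pass the test (limma across all genes, adjusted p under 0.05). Among all 15200 genes tested, 19.7% rose and 18.1% fell, and the share of collagen genes was 53.7% for rises and 9.76% for falls. Col24a1, Col6a4 and Col10a1 passed the filter only through the K146Q libraries, and without these 3 genes 19 of 38 rose (50%) and 4 fell (10.5%). The median log2 difference was 0.75 over the 41 collagen genes, beside -0.025 over all genes tested. A total of 23 of the 41 had all K146Q libraries above all WT libraries and 7 had them all below, beside 26.6% and 25.7% of all genes. The summed level of all collagen genes went from 4059 ± 400.4 CPM in WT to 8222 ± 902 CPM in K146Q mice (SD, n = 3), a ratio of means of 2.03. By class, the summed fibrillar collagens went from 983 ± 162 CPM in WT to 2932 ± 281 CPM in K146Q mice (SD, n = 3). The basement membrane collagens went from 2290 ± 187 CPM in WT to 3930 ± 467 CPM in K146Q mice (SD, n = 3). FACIT collagens (216 and 346 CPM) and the other collagens (569.7 and 1014 CPM) were higher in K146Q by 1.5999-fold and 1.78-fold. In no class did the sums of the genotypes overlap. Among the other collagens, Col6a2 led the WT sum with 45.1% and Col25a1 the K146Q sum with 28.1%. The rise of that class sum therefore rests in large part on Col25a1. In bulk tissue, a change in the share of cells of a type and a change in RNA per cell cannot be told apart.

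**Figure D1:**
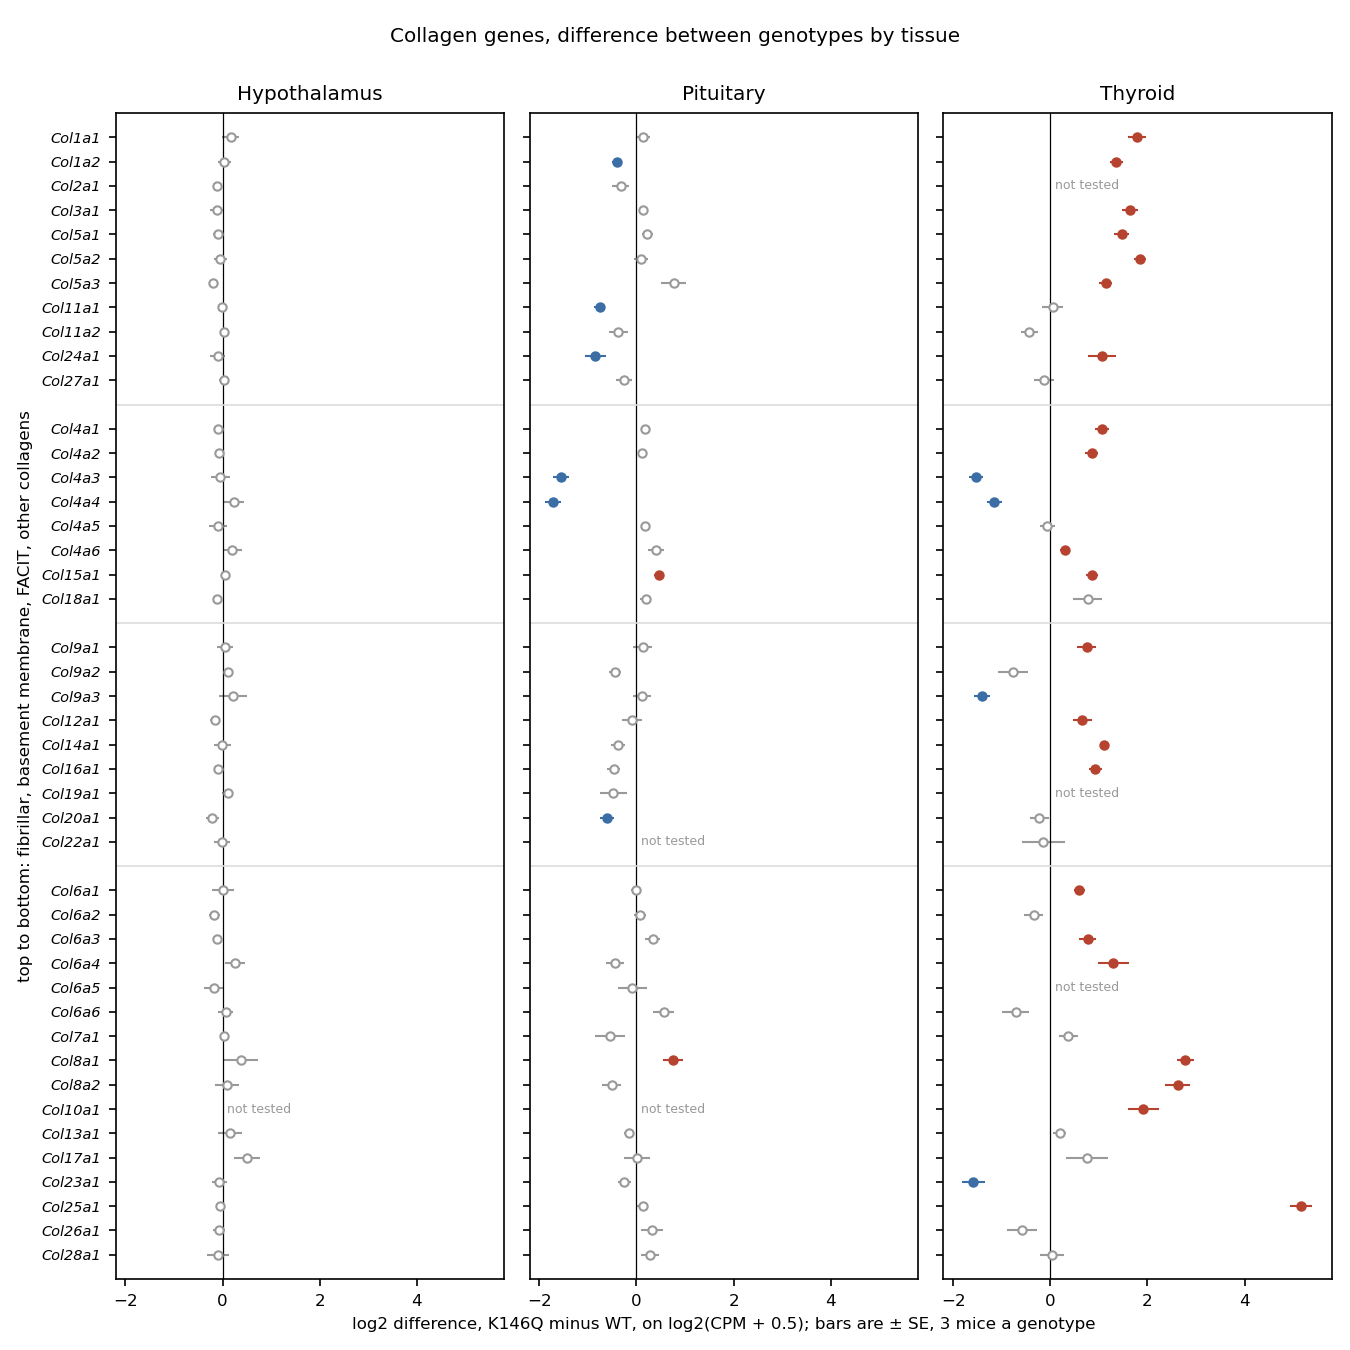
Log2 difference between K146Q and WT mice (x axis, with SE, on log2(CPM + 0.5)) of each of the 44 collagen genes (y axis, by class) in the 3 tissues, with filled points for an adjusted p under 0.05 (red for rises, blue for falls) and open points for the rest. The thyroid panel holds 22 rises and 4 falls, the pituitary panel 2 and 6, and the hypothalamus panel none.

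**Figure D2:**
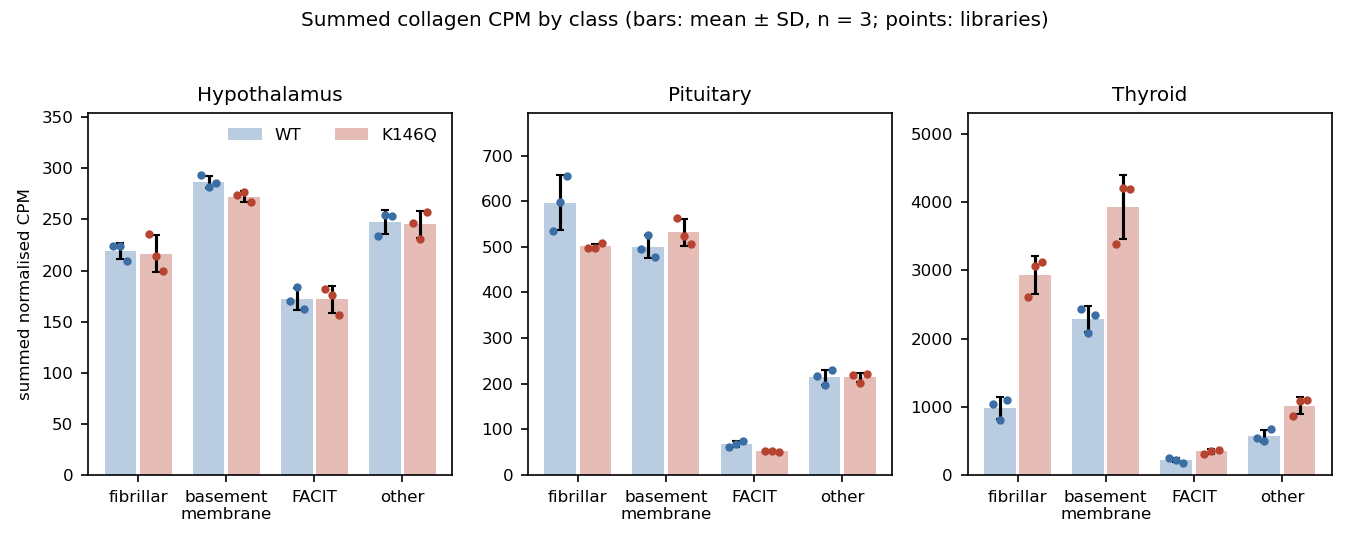
Summed normalised CPM (y axis, a different scale in each panel) of the collagen classes (x axis) in WT (blue) and K146Q (red) mice, with bars for the mean, error bars for the SD (n = 3) and points for the libraries. The fibrillar sum of the thyroid goes from 983 to 2932 CPM, and in the hypothalamus the basement membrane sum, at 287 and 272 CPM, is the class sum without overlap.

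Of the fibrillar collagens, 7 of the 10 tested rose in the thyroid and none fell, beside 19.7% and 18.1% of all genes. Col3a1, the homotrimeric collagen of soft stroma, was at 437, 311 and 448 CPM in the WT libraries and at 1137, 1224 and 1320 in the K146Q libraries. Col1a1, the α1 chain of type I, was at 206, 150.03 and 243 CPM in the WT libraries and at 585, 757 and 711 in the K146Q libraries. Col1a2, its α2 partner, was at 231, 194 and 255 CPM in the WT libraries and at 507, 621 and 615 in the K146Q libraries. Every K146Q library lay above every WT library for these 3 genes, by 3.08-fold, 3.43-fold and 2.57-fold of the means. On the log2(CPM + 0.5) scale the differences were 1.64 (SE 0.16, adjusted p = 3.5e-04) for Col3a1, 1.79 (SE 0.19, adjusted p = 4.1e-04) for Col1a1 and 1.36 (SE 0.13, adjusted p = 3.3e-04) for Col1a2. The type V chains, which start fibrils and limit their width, also rose. Col5a2 was at 54.2, 42.96 and 46.1 CPM in the WT libraries and at 148, 183 and 188 in the K146Q libraries (log2 difference 1.84, SE 0.13, adjusted p = 8.6e-05). Col5a1 was at 71.9, 54.8 and 78.1 CPM in the WT libraries and at 164, 197 and 204 in the K146Q libraries (log2 difference 1.47, SE 0.15, adjusted p = 3.6e-04). Col5a3 was at 32.6, 33.4 and 25.4 CPM in the WT libraries and at 57.5, 70.99 and 74.4 in the K146Q libraries (log2 difference 1.14, SE 0.14, adjusted p = 8.6e-04). The genotypes did not overlap for any of the type V chains. The seventh rise was Col24a1, a minor fibrillar chain with only 0, 4 and 4 reads in WT and 15, 11 and 22 in K146Q libraries (log2 difference 1.06, SE 0.28, adjusted p = 0.0206), and its call was lost without WT mouse 1 (0.87, adjusted p = 0.0642). It passed the filter only through the K146Q libraries, and without it 6 of 9 fibrillar genes rose. Col11a1 (0.054), Col11a2 (-0.43) and Col27a1 (-0.14), fibrillar chains known mostly from cartilage, did not pass the test (log2 differences in parentheses). Col2a1, the main fibrillar collagen of cartilage, did not pass the filter, with 0, 2 and 3 reads in WT and 5, 8 and 3 in K146Q libraries.

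**Figure D3:**
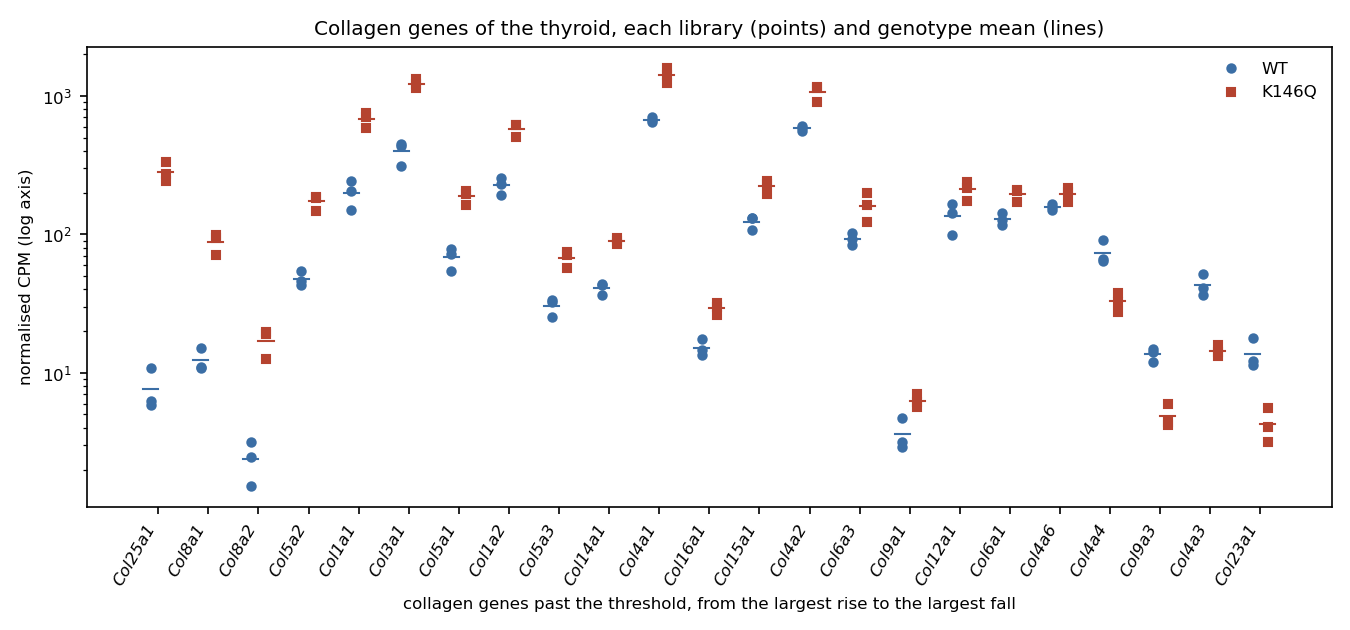
Normalised CPM (y axis, log scale) of the collagen genes past the threshold in the thyroid with a mean of at least 5 CPM in either genotype (x axis), with a point for each WT (blue) and K146Q (red) library and a line at each mean. Col25a1 at the left goes from at most 10.9 to at least 244 CPM, and Col23a1 at the right falls from at least 11.4 to at most 5.55 CPM.

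Basement membrane collagens moved in both directions in the thyroid, with 4 of 8 higher and 2 lower, beside 19.7% and 18.1% of all genes. Col4a1, a chain of the pair that builds nearly every basement membrane, was at 704, 648 and 674 CPM in the WT libraries and at 1242, 1429 and 1596 in the K146Q libraries. Col4a2, which joins it in the same trimer, was at 609, 591 and 563 CPM in the WT libraries and at 908, 1133 and 1154 in the K146Q libraries. Both were higher in every K146Q library, by 2.11-fold (log2 difference 1.07, SE 0.14, adjusted p = 0.00103) and 1.81-fold (log2 difference 0.85, SE 0.13, adjusted p = 0.00232). Under quantile normalization the difference of Col4a2 was 0.53 (adjusted p = 0.0184). Col15a1, a proteoglycan of the basement membrane zone, was at 131, 131 and 108 CPM in the WT libraries and at 195, 233 and 245 in the K146Q libraries (log2 difference 0.86, SE 0.12, adjusted p = 0.00136), again without overlap. Col4a6 rose least, at 165, 158 and 151 CPM in the WT libraries and at 172, 201 and 216 in the K146Q libraries (log2 difference 0.31, SE 0.10, adjusted p = 0.0464). Its call was lost without WT mouse 1 (0.34, adjusted p = 0.0748), WT mouse 2 (0.31, adjusted p = 0.0869), WT mouse 43 (0.28, adjusted p = 0.123), K146Q mouse 62 (0.29, adjusted p = 0.149) or K146Q mouse 83 (0.24, adjusted p = 0.111), and also with no filter, with quantile normalization, when the 10 highest genes were left out of the totals, without the variance trend and with edgeR (adjusted p = 0.0519 to 0.1402). Col18a1, whose end fragment is endostatin, was at 648, 316 and 685 CPM in the WT libraries and at 769, 1082 and 843 in the K146Q libraries. The genotypes did not overlap, but WT mouse 2 stood low and the difference did not pass the test (log2 difference 0.77, SE 0.30, adjusted p = 0.0762). Col4a5 was also not called (log2 difference -0.059, SE 0.15, adjusted p = 0.7895).

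Unlike Col4a1, Col4a2, Col4a6 and Col15a1, the basement membrane genes Col4a3 and Col4a4 fell in the thyroid. Their products join with the α5 chain into the specialised type IV network of the kidney glomerulus and a few other epithelia. Col4a3 was at 40.7, 51.9 and 36.3 CPM in the WT libraries and at 13.2, 15.9 and 14.1 in the K146Q libraries, a 2.98-fold fall (log2 difference -1.53, SE 0.15, adjusted p = 3.0e-04). Col4a4 was at 66.2, 90.5 and 64.1 CPM in the WT libraries and at 27.7, 37.9 and 32.7 in the K146Q libraries, a 2.25-fold fall (log2 difference -1.15, SE 0.16, adjusted p = 0.00154). No K146Q library reached the lowest WT library for either gene. An antisense gene, C430014B12Rik, shares at least 274 exonic bases with Col4a3, and since it is not stated that strand was used in counting, reads there cannot be told apart. The same limit holds for the 22 bases that Col4a1 and Col4a2 share at their starts. For Col4a2 the overlaps with Col4a1 and Gm15419 add up to 65 bases. Shared bases were taken as the largest overlap of any single exon of the neighbour, so the total can be larger. The type IV genes lie head to head in pairs, transcribed away from each other. In GRCm38 (GENCODE M21), Col4a4 (chr1:82448423-82586849, minus strand) and Col4a3 (chr1:82586921-82722059, plus strand) start 71 bases apart, and those bases are printed because both genes moved together.
Col4a4 and Col4a3 between starts, chr1:82586850-82586920, plus strand: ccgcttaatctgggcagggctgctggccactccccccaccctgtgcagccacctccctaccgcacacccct
Both strands of this stretch were searched for 6 short motifs (the GC box GGGCGG, the CCAAT box CCAAT, the cAMP response element TGACGTCA and its shorter form TGACG, the nuclear receptor half-site AGGTCA and the TATA box TATAAA), and none of them matched. Col4a6 and Col4a5 on chromosome X start 1308 bases apart and only Col4a6 passed the test.

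**Figure D4:**
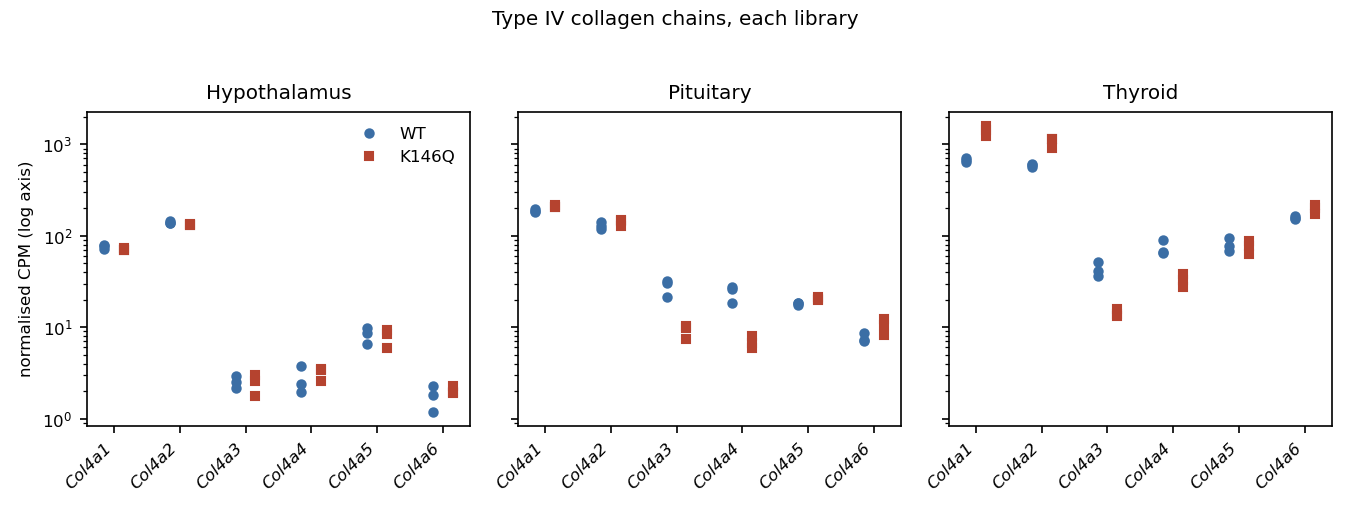
Normalised CPM (y axis, log scale) of the type IV collagen chains (x axis) in each WT (blue) and K146Q (red) library of the 3 tissues. Col4a3 and Col4a4 separate by genotype in pituitary and thyroid with the K146Q libraries below. Col4a1, Col4a2 and Col4a6 separate in the thyroid, and Col4a1 and Col4a5 in the pituitary, with the K146Q libraries above. In the hypothalamus Col4a2 separates with the K146Q libraries below. Col4a1 and Col4a5 of the pituitary and Col4a2 of the hypothalamus did not pass the test.

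FACIT collagens rose in 4 of 8 tested and fell in 1 in the thyroid, beside 19.7% and 18.1% of all genes. Col14a1, which sits on the surface of type I fibrils, was at 43.9, 36.3 and 42.9 CPM in the WT libraries and at 93.7, 89.3 and 84.8 in the K146Q libraries (log2 difference 1.12, SE 0.096, adjusted p = 1.9e-04). Col16a1, a minor component of several matrices, was at 13.5, 17.5 and 14.7 CPM in the WT libraries and at 26.02, 30.1 and 31.9 in the K146Q libraries (log2 difference 0.93, SE 0.13, adjusted p = 0.00155). Neither gene overlapped between the genotypes. Col12a1, the FACIT chain with the highest level per kilobase here, was at 165, 143 and 98.9 CPM in the WT libraries and at 176, 217 and 241 in the K146Q libraries (log2 difference 0.66, SE 0.20, adjusted p = 0.0341). Its call was lost without WT mouse 2 (0.71, adjusted p = 0.0527), WT mouse 43 (0.45, adjusted p = 0.0606), K146Q mouse 62 (0.63, adjusted p = 0.106) or K146Q mouse 83 (0.56, adjusted p = 0.105), when the 10 highest genes were left out of the totals (adjusted p = 0.0589) and with no variance trend (adjusted p = 0.0568). The type IX chains went apart, although in cartilage they form a single heterotrimer. Col9a1 was at 3.16, 2.91 and 4.69 CPM in the WT libraries and at 5.6997, 6.99 and 6.16 in the K146Q libraries (log2 difference 0.75, SE 0.20, adjusted p = 0.0207), and this call was lost without WT mouse 1 (0.68, adjusted p = 0.0603), WT mouse 2 (0.63, adjusted p = 0.05397), K146Q mouse 62 (0.68, adjusted p = 0.0826) or K146Q mouse 83 (0.76, adjusted p = 0.0525). Col9a3 was at 14.97, 11.9 and 14.1 CPM in the WT libraries and at 5.95, 4.23 and 4.397 in the K146Q libraries (log2 difference -1.41, SE 0.17, adjusted p = 7.5e-04), and at least 234 of its exonic bases are shared with the opposite-strand gene Tcfl5. Col9a2 was at most 1.46 CPM in every library and not called (log2 difference -0.77, SE 0.31, adjusted p = 0.0875). Col20a1 (-0.23) and Col22a1 (-0.14) did not pass the test, and Col19a1 did not pass the filter, with 6, 14 and 6 reads in WT and 4, 1 and 5 in K146Q libraries.

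The largest change of any collagen gene was that of Col25a1 in the thyroid. Its product, also called CLAC-P, is a membrane collagen known from neurons and from amyloid plaques. Col25a1 was at 10.9, 5.88 and 6.25 CPM in the WT libraries and at 244, 334 and 275 in the K146Q libraries, a 37.1-fold difference of the means (log2 difference 5.16, SE 0.23, adjusted p = 1.4e-05). Its level per kilobase of exon went from rank 26 of the 44 genes in WT to rank 8 in K146Q mice. In the pituitary the gene was at 48.1, 36.5 and 43.9 CPM in the WT libraries and at 44.5, 44.9 and 50.8 in the K146Q libraries and in the hypothalamus at 129.9, 144 and 139.5 CPM in the WT libraries and at 129, 126 and 146.03 in the K146Q libraries, and it was called in neither (adjusted p = 0.507 and 0.998). The gene lies at chr3:130131501-130599877 on the plus strand (GRCm38, GENCODE M21). The 250 bases before its RefSeq start, which lie inside the longer GENCODE gene and overlap none of its exons, are printed with the matches of the same 6 motifs in capitals.
Col25a1 upstream, chr3:130180595-130180844, plus strand: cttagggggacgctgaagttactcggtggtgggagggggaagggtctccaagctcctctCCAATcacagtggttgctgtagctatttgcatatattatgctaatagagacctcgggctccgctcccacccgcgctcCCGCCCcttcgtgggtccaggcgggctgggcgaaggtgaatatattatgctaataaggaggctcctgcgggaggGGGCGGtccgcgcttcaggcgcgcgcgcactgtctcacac
The matches are a CCAAT box at base 60 and GC boxes at bases 137 (as CCGCCC) and 211. Of 32851 windows of this length in the RefSeq table for GRCm38, 33.8% held a CCAAT box and 32.7% a GC box, and of the 38 windows of 35 collagen genes, 13 (34.2%) and 22 (57.9%) did. The AGGTCA half-site was found in 8 collagen windows (21.1%, beside 14.0% of all), TATAAA in 5 (13.2%, beside 12.4%), TGACG in 4 (10.5%, beside 17.8%) and TGACGTCA in 0 (beside 1.55%). A match of letters is a description and not a binding site.

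The short-chain collagens of type VIII rose as well. Col8a1 was at 10.9, 14.996 and 11.01 CPM in the WT libraries and at 70.8, 93.5 and 98.5 in the K146Q libraries, a 7.12-fold difference (log2 difference 2.78, SE 0.17, adjusted p = 5.8e-05). Col8a2 was at 1.52, 2.47 and 3.19 CPM in the WT libraries and at 12.7, 19.6 and 18.9 in the K146Q libraries, a 7.15-fold difference (log2 difference 2.62, SE 0.26, adjusted p = 3.6e-04). For both genes the lowest K146Q library was several times the highest WT library. Col10a1, a type VIII relative of growth plate cartilage, also passed the test, but on few reads, with 1, 2 and 4 reads in WT and 34, 57 and 20 in K146Q libraries (log2 difference 1.92, SE 0.33, adjusted p = 0.00346). Col6a4 was similar, with 3, 2 and 1 reads in WT and 12, 32 and 15 in K146Q libraries (log2 difference 1.298, SE 0.32, adjusted p = 0.0153). Col10a1, Col6a4 and Col24a1 are 3 of the 22 rises, and they were under 0.5 CPM in every WT library, so they passed the filter only through the K146Q libraries where they are high. The size of these low-read differences depends on the pseudocount, and with 0.1 in place of 0.5 they were 3.09 for Col10a1, 2.33 for Col6a4 and 2.06 for Col24a1. Of the main type VI chains, which assemble from α1, α2 and α3, Col6a1 and Col6a3 rose and Col6a2 did not pass the test. Col6a1 was at 128, 116 and 143 CPM in the WT libraries and at 170.3, 206 and 209.6 in the K146Q libraries (log2 difference 0.59, SE 0.11, adjusted p = 0.00596). Col6a3 was at 93.3, 83.97 and 102 CPM in the WT libraries and at 123, 162 and 199 in the K146Q libraries (log2 difference 0.77, SE 0.17, adjusted p = 0.0104). Col6a2 was at 229.6, 199 and 342 CPM in the WT libraries and at 175, 199.98 and 220.01 in the K146Q libraries, with overlapping genotypes (log2 difference -0.34, SE 0.20, adjusted p = 0.2099). Col23a1, another membrane collagen, fell most of the collagen genes of the thyroid, at 11.4, 17.8 and 12.1 CPM in the WT libraries and at 5.55, 4.05 and 3.17 in the K146Q libraries (log2 difference -1.59, SE 0.24, adjusted p = 0.001997). Col13a1 (0.19), Col17a1 (0.75), Col7a1 (0.37), Col26a1 (-0.58), Col28a1 (0.032) and Col6a6 (-0.71) did not pass the test, and Col6a5 did not pass the filter, with 9, 7 and 20 reads in WT and 4, 4 and 6 in K146Q libraries.

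Other leading genes lie at chr1:45311538-45349706 (Col3a1), chr11:94936224-94953042 (Col1a1), chr6:4504814-4541544 (Col1a2), chr16:57624258-57754737 (Col8a1) and chr4:126286793-126314330 (Col8a2) in GRCm38. Some exonic bases of other called genes are shared with a neighbour, so their reads could belong to either gene. The shared bases number at least 18 for Col10a1 and 14 for Col15a1 with a gene on the opposite strand, and at least 141 for Col3a1 with Gm47302 on the same strand. For Col5a1 the overlaps with the opposite-strand genes 2810430I11Rik and Gm13372 add up to 212 bases. For Col6a4 those with Gm36993 and Gm47575, also on the opposite strand, add up to 215.

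Because chains are assembled in fixed proportions, the ratios of partner chains per kilobase of exon were computed in each thyroid library. The length was the union of exons over all protein-coding transcripts of a gene. The absolute size of a ratio depends on that choice and is not a measure of chain proportions. Type I collagen holds more α1 than α2 chains, and the Col1a1 to Col1a2 ratio was 0.804, 0.698 and 0.862 in WT and 1.04, 1.1005 and 1.04 in K146Q libraries. The Col6a1 to Col6a2 ratio was 0.818, 0.856 and 0.613 in WT and 1.43, 1.51 and 1.396 in K146Q libraries, and the Col6a3 to Col6a2 ratio was 0.225, 0.234 and 0.166 in WT and 0.389, 0.4497 and 0.4998 in K146Q libraries. These ratios were higher in every K146Q library, and so was Col4a1 to Col4a2, at 1.13, 1.07 and 1.17 in WT and 1.33, 1.23 and 1.35 in K146Q libraries. Lower in every K146Q library were Col5a1 to Col5a2 (1.04, 1.01 and 1.34 in WT and 0.874, 0.846 and 0.857 in K146Q libraries), Col4a3 to Col4a4 (0.727, 0.677 and 0.669 in WT and 0.563, 0.496 and 0.508 in K146Q libraries) and Col4a5 to Col4a6 (0.475, 0.608 and 0.457 in WT and 0.378, 0.394 and 0.413 in K146Q libraries). Col8a1 to Col8a2 (6.11, 5.15 and 2.93 in WT and 4.73, 4.04 and 4.41 in K146Q libraries) and Col3a1 to Col1a1 (2.26, 2.21 and 1.96 in WT and 2.07, 1.72 and 1.98 in K146Q libraries) overlapped between the genotypes. A comparison of 3 mice with 3 by an exact permutation test cannot give a p below 0.1, which every ratio without overlap reached.

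Genes that make, bind and remove collagen also moved in the thyroid. Of 32 collagen biosynthesis enzymes and chaperones tested, 21 rose and 2 fell, beside 19.7% and 18.1% of all genes, with a median log2 difference of 0.57. Lox, the oxidase that starts cross-links between chains, was at 12.6, 6.897 and 10.2 CPM in the WT libraries and at 49.6, 54.8 and 58.5 in the K146Q libraries (log2 difference 2.43, SE 0.20, adjusted p = 1.6e-04). Next among the rises were the prolyl hydroxylase subunit P4ha3 (5.18 against 0.7895 CPM, log2 difference 2.13, adjusted p = 2.3e-04), the oxidase Loxl3 (19.5 against 6.21 CPM, log2 difference 1.599, adjusted p = 5.1e-04) and the procollagen N-proteinase Adamts2 (85.2 against 32.9 CPM, log2 difference 1.36, adjusted p = 3.9e-04). The falls were Adamts3 (3.64 against 7.94 CPM, log2 difference -1.02, adjusted p = 0.00926), another procollagen proteinase, and P3h2 (10.97 against 22.9 CPM, log2 difference -1.02, adjusted p = 0.00211), a prolyl 3-hydroxylase listed as Leprel1. Of 16 basement membrane partners, 9 rose and 3 fell, and the share of falls is near the 18.1% of all genes that fell. The largest rises were the nidogen Nid2 (198 against 83.01 CPM, log2 difference 1.27, adjusted p = 9.2e-04), the laminins Lamc1 (531 against 228 CPM, log2 difference 1.21, adjusted p = 6.1e-04) and Lama5 (581 against 305 CPM, log2 difference 0.92, adjusted p = 0.00239) and Lamb3 (472 against 256 CPM, log2 difference 0.91, adjusted p = 0.00829). The falls were Lamc3 (1.17 against 14.9 CPM, log2 difference -3.301, adjusted p = 2.9e-04), Lama1 (2.67 against 6.56 CPM, log2 difference -1.09, adjusted p = 0.0244) and Lama2 (22.7 against 38.01 CPM, log2 difference -0.73, adjusted p = 0.00179), all laminin chains. Of 8 collagen-binding small proteoglycans, the 4 rises were Fmod (54.1 against 1.399 CPM, log2 difference 4.91, adjusted p = 8.2e-05), Prelp (355 against 93.8 CPM, log2 difference 1.93, adjusted p = 2.7e-04), Bgn (631 against 207 CPM, log2 difference 1.62, adjusted p = 1.5e-04) and Aspn (35.9 against 16.1 CPM, log2 difference 1.14, adjusted p = 1.8e-04), and the fall was the decorin gene Dcn (163 against 293 CPM, log2 difference -0.85, adjusted p = 0.00242).

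Collagen receptors rose in 7 of 9 tested, none fell, and the integrin chain Itga2 (5.13 against 0.933 CPM, log2 difference 1.94, adjusted p = 7.0e-04), the leukocyte receptor Lair1 (8.19 against 3.63 CPM, log2 difference 1.06, adjusted p = 0.00224), the endocytic receptor Mrc2 (41.6 against 20.3 CPM, log2 difference 1.02, adjusted p = 3.7e-04) and the integrin chain Itga1 (96.1 against 51.2 CPM, log2 difference 0.92, adjusted p = 0.005904) led. Of 9 proteases and inhibitors tested, 5 rose and 1 fell, and these counts too stand beside 19.7% of all genes rising and 18.1% falling. The tissue inhibitor Timp1 (45.5 against 4.33 CPM, log2 difference 3.32, adjusted p = 1.3e-04) rose most, followed by Mmp14 (149.7 against 77.5 CPM, log2 difference 0.95, adjusted p = 3.7e-04), Ctsk (13.1 against 6.82 CPM, log2 difference 0.93, adjusted p = 0.00774) and Timp2 (392 against 276 CPM, log2 difference 0.49, adjusted p = 0.02897), and the inhibitor Timp4 (0.866 against 3.96 CPM, log2 difference -1.68, adjusted p = 0.00383) fell. Median log2 differences were 0.56 for the basement membrane partners, 0.64 for the small proteoglycans, 0.73 for the receptors and 0.41 for the proteases and inhibitors, beside -0.025 over all genes.

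**Figure D5:**
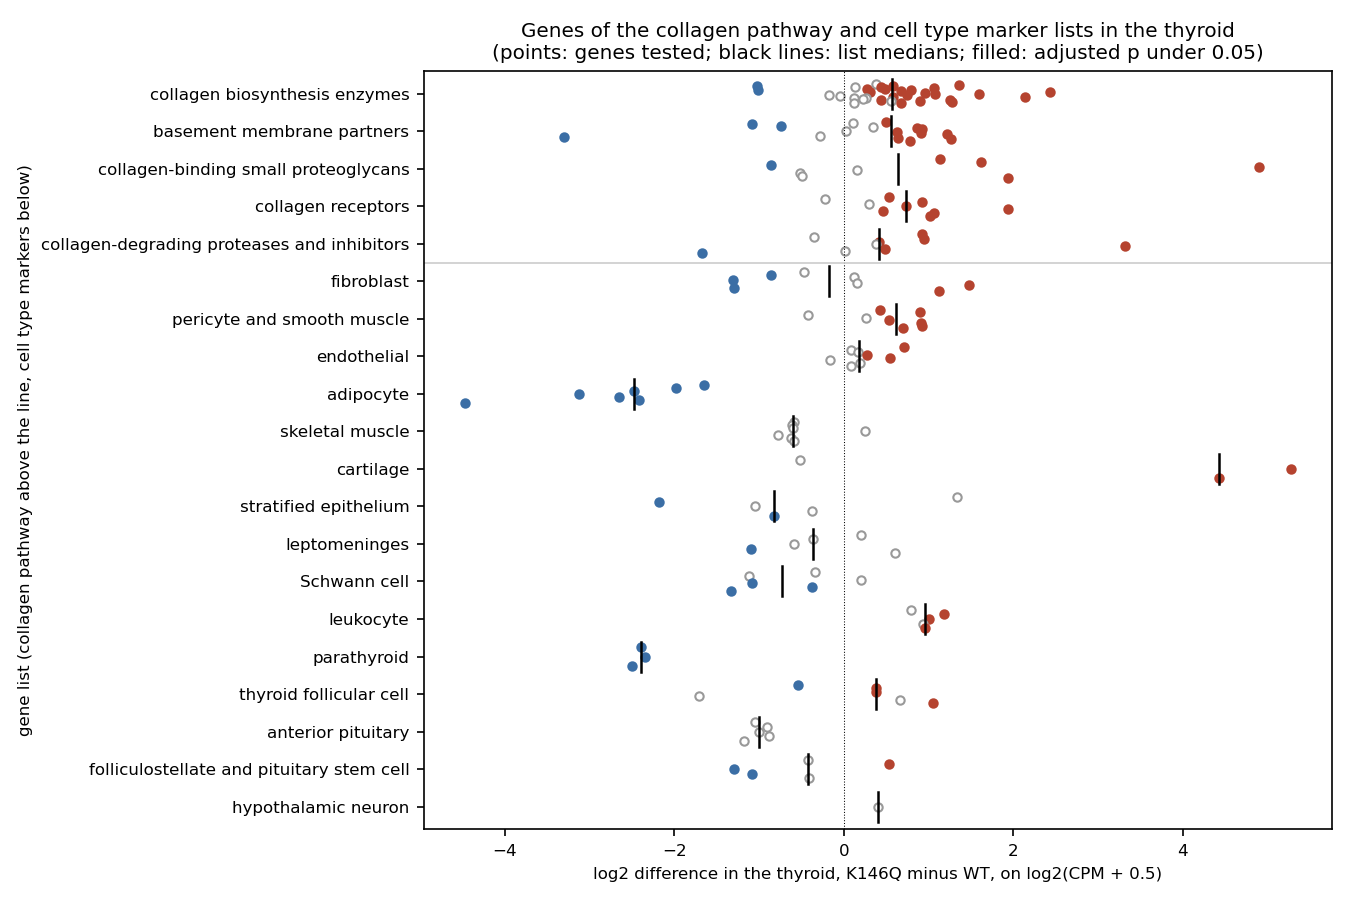
Log2 difference between K146Q and WT thyroid (x axis, on log2(CPM + 0.5)) of the tested genes of collagen pathway lists (above the grey line) and cell type marker lists (below it), with filled points for an adjusted p under 0.05 and a black line at each list median. The biosynthesis enzymes spread to the right around 0.57, and the adipocyte and parathyroid lists lie at -2.48 and -2.398.

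Markers of several other cell types also differed between the genotypes in the same thyroid libraries, and their part in the collagen differences was not tested. Their counts stand beside the 19.7% of all genes that rose and the 18.1% that fell. Fibroblast markers did not rise as a list, with 2 of 8 higher, 3 lower and summed levels of 1906, 1877 and 1826 CPM in the WT libraries and 1111, 887 and 892 in the K146Q libraries. By CPM, not corrected for length, their most abundant gene was Gsn (555 against 1367 CPM, log2 difference -1.304, adjusted p = 2.9e-04), the defining Pdgfra (18.9 against 48.1 CPM, log2 difference -1.29, adjusted p = 0.00312) fell, and Pi16 (70.3 against 34.7 CPM, log2 difference 1.12, adjusted p = 0.0371) and Mfap5 (41.1 against 14.8 CPM, log2 difference 1.48, adjusted p = 0.001798) rose. Gsn alone made up most of the list sum in both genotypes and most of its fall. The remaining fall was Dcn, which is also in the small proteoglycan list, with its values above. Pericyte and smooth muscle markers rose in 6 of 8, such as Pdgfrb (124 against 65.96 CPM, log2 difference 0.91, adjusted p = 0.00113) and Rgs5 (151 against 78.9 CPM, log2 difference 0.92, adjusted p = 0.0216), with sums of 342, 499 and 644 CPM in the WT libraries and 657, 582 and 623 in the K146Q libraries and Des (desmin) the most abundant. Endothelial markers rose in 3 of 8, with sums of 1166, 1198 and 1126 CPM in the WT libraries and 1519, 1444 and 1479 in the K146Q libraries, Plvap the most abundant, and Cdh5 (181 against 111 CPM, log2 difference 0.71, adjusted p = 8.7e-04) among the rises. Leukocyte markers rose in 3 of 5 tested, with sums of 346, 173 and 303 CPM in the WT libraries and 588, 472 and 482 in the K146Q libraries, Lyz2 the most abundant and Ptprc (26.7 against 13.5 CPM, log2 difference 0.96, adjusted p = 0.00106) among the rises. Adipocyte markers all fell, 7 of 7, with sums of 737, 714 and 800.5 CPM in the WT libraries and 198, 115 and 101 in the K146Q libraries, and Fabp4 was the most abundant. The 3 parathyroid markers fell as well, with sums of 3454, 6409 and 4129 CPM in the WT libraries and 1569, 523 and 622 in the K146Q libraries, nearly all from Pth. Skeletal muscle markers varied within both genotypes, with sums of 359, 4481 and 6796 CPM in the WT libraries and 3880, 935 and 815 in the K146Q libraries, Myh4 the most abundant and 0 of 7 called. Schwann cell markers fell in 3 of 6 (sums of 195, 172 and 212 CPM in the WT libraries and 132, 117 and 155 in the K146Q libraries, Pmp22 the most abundant), stratified epithelium markers in 2 of 5 tested (73.1, 54.5 and 114 CPM in the WT libraries and 105, 33.5 and 42.6 in the K146Q libraries, Krt5) and leptomeningeal markers in 1 of 5 tested (11.9, 12.8 and 8.06 CPM in the WT libraries and 10.5, 8.76 and 10.4 in the K146Q libraries, Foxc1), the last a share near that of all genes.

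Of the cartilage list, only 3 of 8 genes passed the filter in the thyroid, and Comp (60.4 against 1.06 CPM, log2 difference 5.28, adjusted p = 1.4e-05) and Cnmd (183 against 9.98 CPM, log2 difference 4.43, adjusted p = 6.8e-04), listed as Lect1, rose. The third gene tested, Chad, averaged 5.798 ± 0.91 CPM in WT and 3.96 ± 1.099 CPM in K146Q mice and was not called (log2 difference -0.52, SE 0.22, adjusted p = 0.104). The list summed to 23.7, 10.9 and 17.9 CPM in the WT libraries and 244, 260.04 and 239.6 in the K146Q libraries, nearly all of it from Comp and Cnmd in the K146Q libraries. Hapln1 and Acan, under the filter, averaged 0.334 ± 0.137 CPM in WT and 0.0917 ± 0.0299 CPM in K146Q mice and 0.285 ± 0.274 CPM in WT and 0.0979 ± 0.122 CPM in K146Q mice. The defining cartilage genes Matn1, Matn3 and Snorc were at no more than 3 reads in every thyroid library, and Col2a1 at no more than 0.4701 CPM. Among the thyroid follicular markers, Tg was at 349907, 357296 and 293439 CPM in the WT libraries and at 83869, 96214 and 130421 in the K146Q libraries, without overlap. Its level lay far above that of the other genes, and its log2 difference of -1.71 had an adjusted p of 0.8203 with the variance trend of limma, 0.00128 without it and 0.0215 with edgeR. With DESeq2 the log2 difference was -1.675 (adjusted p = 1.4e-21). Of the 6 follicular genes the 3 rises called with the trend were Tshr (522 against 253 CPM, log2 difference 1.06, adjusted p = 0.00114), Pax8 (581 against 445 CPM, log2 difference 0.38, adjusted p = 0.01897) and Nkx2-1 (516 against 396 CPM, log2 difference 0.38, adjusted p = 0.0275), and the 1 fall so called was Foxe1 (257 against 371 CPM, log2 difference -0.53, adjusted p = 0.00875), beside 19.7% and 18.1% of all genes. This count of falls leaves out Tg. When the 10 highest genes were left out of the library totals, 20 collagen genes rose and 4 fell in the thyroid, while all genes split into 2496 rises and 3613 falls in place of 2992 and 2747. Leaving out single mice, 16 to 21 collagen genes rose and 4 or 5 fell, and without K146Q mouse 62 the counts over all genes were 1937 and 1665.

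In the pituitary the collagen genes moved less, and more of them fell than rose. Of 42 tested, 2 rose, 6 fell and 34 did not pass the test, beside 6.36% of 15589 genes rising and 3.5% falling (limma, adjusted p under 0.05). Shares of the collagen genes were 4.76% and 14.3%, and their median log2 difference was 0.0034. K146Q libraries lay all above the WT libraries for 9 of the 42 and all below for 11, beside 16.7% and 14.3% of all genes. Summed over the class, fibrillar collagens went from 596 ± 60.5 CPM in WT to 501 ± 6.396 CPM in K146Q mice (SD, n = 3) and FACIT collagens from 68.1 ± 6.16 CPM in WT to 51.8 ± 1.13 CPM in K146Q mice (SD, n = 3), both without overlap. Col1a2, whose own call depended on the mice kept (below), made up 51.3% of the fibrillar sum in WT and 46.1% in K146Q mice. Basement membrane collagens (499.8 and 531 CPM) and the other collagens (214 and 214 CPM) overlapped.

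The largest falls among collagen genes of the pituitary were those of the head-to-head pair Col4a4 and Col4a3. Col4a4 was at 27.8, 26.1 and 18.5 CPM in the WT libraries and at 5.93, 6.79 and 7.98 in the K146Q libraries, a 3.498-fold fall (log2 difference -1.72, SE 0.17, adjusted p = 3.4e-04). Col4a3 was at 30.7, 31.8 and 21.2 CPM in the WT libraries and at 7.43, 9.75 and 10.2 in the K146Q libraries, a 3.06-fold fall (log2 difference -1.55, SE 0.17, adjusted p = 6.5e-04). In both genes the highest K146Q library was well below the lowest WT library, and both calls held in all 16 alternatives. The Col4a3 to Col4a4 ratio per kilobase was 1.30, 1.44 and 1.36 in WT and 1.48, 1.70 and 1.51 in K146Q libraries. Every K146Q ratio was above every WT ratio, the opposite of the thyroid. Col11a1, a fibrillar chain best known from cartilage, was at 34.5, 34.1 and 27.2 CPM in the WT libraries and at 18.2, 19.5 and 17.96 in the K146Q libraries (log2 difference -0.76, SE 0.11, adjusted p = 0.00279), and this call held in all 16 too. The other main type IV chains did not pass the test, with 0.17 for Col4a1 and 0.12 for Col4a2, nor did Col4a5 (0.18), Col4a6 (0.41) or Col18a1 (0.19, log2 differences). Col15a1 rose, at 51.3, 52.4 and 54.4 CPM in the WT libraries and at 81.2, 69.5 and 67.2 in the K146Q libraries (log2 difference 0.46, SE 0.087, adjusted p = 0.01098), and its call was lost without K146Q mouse 60 (0.37, adjusted p = 0.0562).

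Each of the remaining calls of the pituitary was lost when one or another mouse was left out. Col1a2, first of all collagen genes of the gland per kilobase, was at 274, 294 and 349 CPM in the WT libraries and at 217, 222 and 253 in the K146Q libraries (log2 difference -0.40, SE 0.0997, adjusted p = 0.0337). Its call was lost without WT mouse 2 (-0.43, adjusted p = 0.0654), WT mouse 43 (-0.30, adjusted p = 0.0755), K146Q mouse 60 (-0.36, adjusted p = 0.153) or K146Q mouse 62 (-0.38, adjusted p = 0.127), and with no filter (adjusted p = 0.0559) or no variance trend (adjusted p = 0.0952). Its partner Col1a1 was at 54.1, 58.9 and 75.5 CPM in the WT libraries and at 82.9, 59.7 and 64.2 in the K146Q libraries and was not called (log2 difference 0.13, SE 0.15, adjusted p = 0.628). The per-kilobase ratio of Col1a1 to Col1a2 was 0.178, 0.181 and 0.195 in WT and 0.345, 0.242 and 0.229 in K146Q libraries. All K146Q ratios were above all WT ratios, and all were far under those of the thyroid. Col24a1 was at 15.1, 24.5 and 14.2 CPM in the WT libraries and at 7.79, 11.7 and 9.23 in the K146Q libraries (log2 difference -0.85, SE 0.21, adjusted p = 0.0346), and the call was lost without WT mouse 1 (-0.95, adjusted p = 0.0513), WT mouse 2 (-0.61, adjusted p = 0.0774), K146Q mouse 60 (-0.72, adjusted p = 0.149) or K146Q mouse 83 (-0.83, adjusted p = 0.0807), with no filter (adjusted p = 0.0617) or with no variance trend (adjusted p = 0.0781). Col20a1, a little-studied FACIT chain, was at 9.43, 11.4 and 10.3 CPM in the WT libraries and at 5.88, 7.81 and 6.32 in the K146Q libraries (log2 difference -0.61, SE 0.14, adjusted p = 0.0267), and the call was lost without WT mouse 2 (-0.54, adjusted p = 0.0848), WT mouse 43 (-0.61, adjusted p = 0.0547), K146Q mouse 60 (-0.53, adjusted p = 0.1204) or K146Q mouse 83 (-0.58, adjusted p = 0.0683), or with no filter (adjusted p = 0.0518). Reads on at least 79 of its exonic bases could also belong to an overlapping gene on the same strand. Col8a1 rose, at 10.6, 7.15 and 7.29 CPM in the WT libraries and at 18.6, 13.6 and 11.3 in the K146Q libraries (log2 difference 0.75, SE 0.20, adjusted p = 0.0447), and the call was lost without WT mouse 2 (0.66, adjusted p = 0.129), WT mouse 43 (0.67, adjusted p = 0.102), K146Q mouse 60 (0.57, adjusted p = 0.176) or K146Q mouse 62 (0.78, adjusted p = 0.109), with no filter (adjusted p = 0.0772) or with no variance trend (adjusted p = 0.0873). Its partner Col8a2 averaged 7.99 ± 2.23 CPM in WT and 5.36 ± 0.683 CPM in K146Q mice and was not called (log2 difference -0.51, SE 0.19, adjusted p = 0.126). The Col8a1 to Col8a2 ratio per kilobase was 1.28, 0.947 and 0.587 in WT and 3.05, 2.40 and 1.57 in K146Q libraries, without overlap.

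Col3a1 (0.14), Col6a1 (-0.0034), Col6a2 (0.067) and Col6a3 (0.34) were not called in the pituitary (log2 differences). Col16a1 just missed the threshold, at 19.8, 26.1 and 23.4 CPM in the WT libraries and at 17.6, 17.7 and 14.2 in the K146Q libraries (log2 difference -0.47, SE 0.13, adjusted p = 0.0512), as did Col9a2 (log2 difference -0.44, SE 0.13, adjusted p = 0.0634). The rest, from -0.54 (Col7a1) to 0.77 (Col5a3) in log2 difference, did not pass, and Col10a1 and Col22a1 were under the filter, with at most 0.228 and 0.684 CPM. Without K146Q mouse 60 the counts of collagen genes were 0 rises and 3 falls, and without WT mouse 2 they were 1 and 3. Over all genes, leaving out K146Q mouse 60 gave 442 rises and 183 falls, leaving out K146Q mouse 62 gave 518 and 234, and leaving out WT mouse 2 gave 713 and 358, in place of 991 and 546. When the 10 highest genes were left out of the library totals, all genes split into 837 rises and 879 falls and the collagen genes into 2 and 8.

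Collagen biosynthesis genes of the pituitary went both ways, with 6 of 32 higher and 3 lower, beside 6.36% and 3.5% of all genes. The glycosyltransferase Colgalt2 (26.3 against 7.05 CPM, log2 difference 1.84, adjusted p = 8.7e-05) rose most, followed by P3h2 (5.08 against 2.35 CPM, log2 difference 0.95, adjusted p = 0.0155), listed as Leprel1, the prolyl isomerase Fkbp14 (113 against 66.4 CPM, log2 difference 0.76, adjusted p = 6.5e-04) and the lysyl hydroxylase Plod3 (73.5 against 48.5 CPM, log2 difference 0.59, adjusted p = 0.00872). The falls were Pxdn (57.2 against 117 CPM, log2 difference -1.03, adjusted p = 6.0e-04), which cross-links type IV collagen, Adamts2 (16.5 against 30.96 CPM, log2 difference -0.89, adjusted p = 0.00273) and Loxl1 (71.2 against 102 CPM, log2 difference -0.52, adjusted p = 0.00598). Among 16 basement membrane partners the 3 rises were Lama4 (53.8 against 20.6 CPM, log2 difference 1.36, adjusted p = 9.6e-05), Sparc (199 against 136 CPM, log2 difference 0.55, adjusted p = 0.00436) and Nid1 (84.2 against 63.7 CPM, log2 difference 0.40, adjusted p = 0.04101), and the 1 fall was Lamb2 (54.99 against 72.1 CPM, log2 difference -0.39, adjusted p = 0.0269), beside the same shares of all genes. Without WT mouse 2 or K146Q mouse 62, only 2 partners were called in place of 4. Of the proteases and inhibitors Timp2 (154 against 198 CPM, log2 difference -0.36, adjusted p = 0.0276) fell, and no small proteoglycan (0 of 8) or receptor (0 of 9 tested) was called. Median log2 differences were -0.030 for the enzymes and 0.010 for the partners, beside -0.0088 over all genes.

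Counts of the pituitary marker lists stand beside the 6.36% of all genes that rose and the 3.5% that fell. Of 6 anterior pituitary markers, 2 rose (Tshb and Cga) and 1 fell (Prl). Their sums were 132396, 165050 and 255974 CPM in the WT libraries and 108710, 118577 and 111887 in the K146Q libraries. Gh was the most abundant of them. Casr, 1 of 2 parathyroid markers tested, and Gad1, 1 of 5 hypothalamic neuron markers tested, also rose, with values given below. Fibroblast (sums of 283, 273 and 312 CPM in the WT libraries and 314, 289.7 and 288 in the K146Q libraries), pericyte and smooth muscle (207, 169 and 174 CPM in the WT libraries and 198, 189.5 and 181 in the K146Q libraries), leptomeningeal (33.1, 47.6 and 36.5 CPM in the WT libraries and 48.3, 41.9 and 65.8 in the K146Q libraries), Schwann cell (27.3, 30.1 and 91.3 CPM in the WT libraries and 26.6, 28.7 and 30.1 in the K146Q libraries) and skeletal muscle markers (3.604, 4.63 and 4.67 CPM in the WT libraries and 4.75, 4.798 and 4.41 in the K146Q libraries) had no call. Leukocyte markers rose in 3 of 5 tested, with sums of 51.3, 47.01 and 58.3 CPM in the WT libraries and 137, 104 and 79.3 in the K146Q libraries and Csf1r (59.1 against 29.5 CPM, log2 difference 0.97, adjusted p = 0.00178) the most abundant. Of the endothelial list (sums of 503, 548 and 509 CPM in the WT libraries and 558, 573 and 557 in the K146Q libraries) only Pecam1 (49.5 against 36.1 CPM, log2 difference 0.45, adjusted p = 0.00998) rose, and Plvap was the most abundant. Cartilage markers fell in 2 of 3 tested, Hapln1 (1.64 against 24.5 CPM, log2 difference -3.64, adjusted p = 8.7e-05) and Acan (0.339 against 0.9902 CPM, log2 difference -0.83, adjusted p = 0.0379), with list sums of 27.1, 26.6 and 28.7 CPM in the WT libraries and 3.15, 2.71 and 4.72 in the K146Q libraries. Matn1 and Snorc, which define cartilage, were listed at 0 in the pituitary, and Matn3 had at most 3 reads. The adipocyte list had 1 gene tested, Fabp4 (7.93 against 4.4004 CPM, log2 difference 0.81, adjusted p = 0.0228), and the stratified epithelium list 1 rise, Trp63 (2.41 against 0.501 CPM, log2 difference 1.55, adjusted p = 0.00236). Of the folliculostellate and stem cell markers Fxyd1 (3.06 against 5.16 CPM, log2 difference -0.66, adjusted p = 0.0319) fell and Sox2 was the most abundant. Their part in the collagen differences was not tested.

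In the hypothalamus no collagen gene passed the test, 0 of 43, and 0% of all 15761 genes rose and 0% fell (limma, adjusted p under 0.05). A single collagen gene, Col5a3, had an unadjusted p under 0.05, and over all genes 377 rises and 268 falls did. DESeq2 called 5 rises and 6 falls over all genes, edgeR called 0, and neither called a collagen gene. The log2 differences of the 43 genes ran from -0.21 (Col20a1) to 0.49 (Col17a1) with a median of -0.016. K146Q libraries lay all below the WT libraries for 4 of the 43 (Col2a1, Col5a3, Col4a2 and Col20a1) and all above for 0, beside 4.95% and 4.2% of all genes. Col4a2, the most abundant chain per kilobase, was at 144, 137 and 138 CPM in the WT libraries and at 131, 133 and 133 in the K146Q libraries, and Col4a1 was at 78.5, 71.3 and 78.04 CPM in the WT libraries and at 69.2, 73.3 and 69.1 in the K146Q libraries. Col1a1, Col1a2 and Col3a1 were low, at 8.27 ± 0.814 CPM in WT and 9.499 ± 2.38 CPM in K146Q mice, 19.8 ± 1.88 CPM in WT and 20.7 ± 4.64 CPM in K146Q mice and 3.32 ± 0.291 CPM in WT and 3.03 ± 0.435 CPM in K146Q mice. Type VI collagen averaged 15.2 ± 1.18 CPM in WT and 16.1 ± 6.92 CPM in K146Q mice for Col6a1, 12.8 ± 1.82 CPM in WT and 11.2 ± 0.441 CPM in K146Q mice for Col6a2 and 10.6 ± 0.425 CPM in WT and 9.82 ± 0.583 CPM in K146Q mice for Col6a3. For Col6a1 a single library, that of K146Q mouse 83, stood at 24.04 CPM, above the other K146Q libraries at 12.6 and 11.6 CPM. Col4a3 and Col4a4 were at 2.51 ± 0.371 CPM in WT and 2.45 ± 0.628 CPM in K146Q mice and 2.71 ± 0.934 CPM in WT and 3.17 ± 0.515 CPM in K146Q mice. Col10a1 was under the filter, with 0, 0 and 2 reads in WT and 3, 2 and 3 in K146Q libraries. By class, the basement membrane sum went from 287 ± 5.81 CPM in WT to 272 ± 5.07 CPM in K146Q mice (SD, n = 3), with every K146Q library below every WT library, and the fibrillar sum went from 219 ± 8.13 CPM in WT to 217 ± 18.01 CPM in K146Q mice (SD, n = 3), with overlap. None of the pathway and marker lists held a call either, and the summed fibroblast, endothelial, pericyte and smooth muscle and leptomeningeal markers were at 141, 119.5, 136 and 244 CPM in WT and at 148, 121, 147 and 281 CPM in K146Q mice.

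Whether the genotype difference itself differed between tissues was tested in a fit of all 18 libraries with 6 group means over 17140 genes. Thyroid and pituitary differed for 23 of 44 collagen genes, beside 33.8% of all genes. In 20 of the 23 the thyroid difference was the more positive one. Among these 20 were Col10a1, Col24a1 and Col6a4, which passed the thyroid filter only through the K146Q libraries, and Col2a1, which did not pass it. Thyroid and hypothalamus differed for 26, beside 30.8%, with 21 of them more positive in the thyroid. Col10a1, Col24a1 and Col6a4 were again among these 21. Pituitary and hypothalamus differed for 2, beside 3.24%. The direction of these differences was not counted over all genes, so 20 of 23 and 21 of 26 have no such share beside them. These comparisons share libraries and are not independent of each other. Col25a1 had the largest difference of differences, 5.03 (SE 0.24, adjusted p = 2.1e-10) between thyroid and pituitary and 5.21 (SE 0.24, adjusted p = 1.6e-10) between thyroid and hypothalamus. Col8a2 followed between thyroid and pituitary with 3.13 (SE 0.39, adjusted p = 1.2e-05), and Col8a1 with 2.03 (SE 0.44, adjusted p = 0.00201). Col1a2, which rose in the thyroid and fell in the pituitary, differed by 1.76 (SE 0.20, adjusted p = 5.3e-06). Col4a1 and Col4a2 differed by 0.90 (SE 0.11, adjusted p = 7.4e-06) and 0.73 (SE 0.12, adjusted p = 2.1e-04) between thyroid and pituitary. Col4a3 and Col4a4, which fell in both glands, were the genes that separated pituitary from hypothalamus, by -1.504 (SE 0.27, adjusted p = 0.00353) and -1.95 (SE 0.29, adjusted p = 8.8e-04). Between thyroid and pituitary their falls differed by 0.018 (SE 0.27, adjusted p = 0.966) and 0.57 (SE 0.29, adjusted p = 0.144), which did not pass the test. Col15a1 rose in both glands, and the rise was larger in the thyroid by 0.40 (SE 0.14, adjusted p = 0.03504).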

How the data were processed

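RNA was taken from hypothalamus, pituitary and thyroid of 3 WT and 3 K146Q mice and sequenced (Illumina HiSeq). The RNA-Seq methods state that pituitary and hypothalamus were collected. How the thyroid was dissected for the libraries is not given in the sources used here. Per the labels, the submitters' processing notes name bcl2fastq 2.17, Bowtie2 2.1.0, RSEM 1.2.15 and mm10; the annotation and strand setting are not given in the sources used here. The authors deposited a table of 24054 genes per tissue with a normalised signal in CPM for each library. They also deposited log2 fold changes and average log2 CPM, p-values with FDR and a likelihood ratio score for K146Q against WT, which were not used. Dividing by the value of 1 read gave whole reads (within 0.01) for 100% of the values. The values were tested as log2(CPM + 0.5) with limma 3.58.1 (R 4.3.3, mean-variance trend) in each tissue, keeping genes that reached 0.5 CPM in 3 or more libraries, with Benjamini-Hochberg adjustment over all genes tested and a threshold of 0.05; such log2 differences understate changes of low genes. Replicates are separately numbered mice, and p-values measure the spread between them. No pair of replicates was a repeat within sampling noise (lowest chi-square over its degrees of freedom, 5.87). Genes named are the main type I, III, IV and VI chains, every collagen gene past the threshold or under the filter, up to 4 called genes per direction of each pathway list, and the defining and most abundant markers; others were named after their values were seen. The members, lists and tests were chosen with earlier results of these data known. Lists held 32, 16, 8, 10 and 10 pathway genes, and 7 genes were matched by older symbols. Lengths and positions come from GENCODE M21 (GRCm38, the assembly of mm10) and promoters from RefSeq. Levels and ranks per kilobase use the union of exons over all protein-coding transcripts of a gene. In hypothalamus and pituitary 27 symbols had become dates and were left out between tissues. Alternatives were other pseudocounts, filters, scalings, no trend, edgeR 4.0.16 and DESeq2 1.42.0 on the recovered reads and leaving out each mouse. The scripts were tested on simulated data, in which nearly all changed genes were recovered and false calls were more frequent than the nominal threshold.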

Additional observations from a re-analysis of the deposited data

Results flagged for a closer look

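The genotype difference of 23 collagen genes differed between thyroid and pituitary (limma interaction, adjusted p under 0.05), and the values in parentheses are the log2 difference in the thyroid minus that in the pituitary. Fibrillar collagens with a positive difference were Col1a1 (1.66), Col1a2 (1.76), Col2a1 (0.73), Col3a1 (1.498), Col5a1 (1.24), Col5a2 (1.75), Col11a1 (0.81) and Col24a1 (1.91). Basement membrane collagens with a positive difference were Col4a1 (0.90), Col4a2 (0.73) and Col15a1 (0.40). FACIT collagens with a positive difference were Col9a1 (0.63), Col12a1 (0.75), Col14a1 (1.496) and Col16a1 (1.397). With a negative difference there was Col9a3 (-1.52). Other collagens with a positive difference were Col6a4 (1.74), Col8a1 (2.03), Col8a2 (3.13), Col10a1 (2.01) and Col25a1 (5.03). With a negative difference there were Col6a6 (-1.27) and Col23a1 (-1.34).

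Between thyroid and hypothalamus 26 genes differed in the same test, with the thyroid difference minus that of the hypothalamus in parentheses. Fibrillar collagens with a positive difference were Col1a1 (1.63), Col1a2 (1.32), Col3a1 (1.75), Col5a1 (1.57), Col5a2 (1.895), Col5a3 (1.34) and Col24a1 (1.17). Basement membrane collagens with a positive difference were Col4a1 (1.17), Col4a2 (0.93), Col15a1 (0.82) and Col18a1 (0.89). With a negative difference there were Col4a3 (-1.49) and Col4a4 (-1.38). FACIT collagens with a positive difference were Col9a1 (0.70), Col12a1 (0.81), Col14a1 (1.12) and Col16a1 (1.01). With a negative difference there were Col9a2 (-0.87) and Col9a3 (-1.62). Other collagens with a positive difference were Col6a3 (0.88), Col6a4 (1.04), Col8a1 (2.405), Col8a2 (2.53), Col10a1 (1.65) and Col25a1 (5.21). With a negative difference there was Col23a1 (-1.52).

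Between pituitary and hypothalamus Col4a3 (-1.504) and Col4a4 (-1.95) differed. Col2a1, Col10a1, Col24a1 and Col6a4 had few reads in the WT thyroid, Col2a1 was not tested in that tissue alone, and the other 3 passed its filter only through the K146Q libraries. Col6a6 and Col9a2 were low in the thyroid too, at 0.0561 and 0.164 CPM per kb of exon in K146Q mice. Neither was called in the thyroid alone (limma, adjusted p = 0.0785 and 0.0875), nor was Col6a6 in the pituitary (adjusted p = 0.135). What lies behind these differences was not tested.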

How the results depend on the processing

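The direction of every called collagen gene held in all alternatives run. In the pituitary, with no filter 1 collagen gene rose and 3 fell, and without the variance trend 1 rose and 5 fell, in place of 2 and 6. Leaving out single mice gave 0 to 3 rises and 3 to 6 falls in the pituitary and 16 to 21 and 4 to 5 in the thyroid. For biosynthesis enzymes it gave 7 to 10 calls in the pituitary and 18 to 24 in the thyroid, and for basement membrane partners 2 to 4 and 10 to 14; without the trend 2 partners were called in the pituitary in place of 4. Differences between tissues were called for 19 to 22 (thyroid and pituitary), 20 to 28 (thyroid and hypothalamus) and 1 to 3 genes (pituitary and hypothalamus). In the hypothalamus no setting run called a collagen gene. Of 257 values of called thyroid genes under other settings, 7 lost the call, and of 80 in the pituitary 7 did. Leaving out mice, 14 of 147 and 17 of 48 did. Col10a1, Col24a1 and Col6a4 fell under the filter when any K146Q mouse was left out and with 1 CPM asked of every library, and have no value there. Of the collagen genes followed through the settings, namely those called and the main type I, III, IV and VI chains, those that turned sign were not called. In the hypothalamus Col1a2 turned to -0.0096 without WT mouse 43 and -0.11 without K146Q mouse 60, and Col6a1 to -0.016 without WT mouse 2, -0.033 without WT mouse 43 and -0.32 without K146Q mouse 83, with ranges over the mice left out of -0.11 to 0.21 and -0.32 to 0.19. In the pituitary Col1a1 turned to -0.0073 without K146Q mouse 60, Col6a2 to -0.044 without WT mouse 1, and Col6a1 to 0.00052 under quantile normalization, 0.089 without WT mouse 43 and 0.050 without K146Q mouse 62, with ranges of -0.0073 to 0.27, -0.044 to 0.19 and -0.056 to 0.089. The cause was not tested. Since 3 reads were worth 0.133 to 0.190 CPM, depth limits how well the size of a difference is known for genes near that level.

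Within a tissue no paired analysis was possible because the genotypes share no mouse number. Across tissues the mouse numbers recur, but their deviations correlated between -0.027 and 0.17, with some of the mice near 0, so the numbers were not taken as pairs, and the labels do not say whether a number is the same animal in each tissue. With the mouse number as a replicate block (correlation 0.0633) the between-tissue fit called 24 collagen genes for thyroid and pituitary, 26 for thyroid and hypothalamus and 3 for pituitary and hypothalamus, and 6073, 5591 and 643 genes in all in place of 5790, 5281 and 555.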

Other observations

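Some genes of the marker lists that are not part of the collagen pathway moved in the pituitary. Of the hormone genes, the thyrotropin subunits Tshb (6983 against 456 CPM, log2 difference 4.03, adjusted p = 9.2e-05) and Cga (18765 against 3501 CPM, log2 difference 2.42, adjusted p = 3.6e-05) rose and prolactin fell, Prl (7805 against 24873 CPM, log2 difference -1.65, adjusted p = 6.0e-04). Casr, the calcium-sensing receptor kept in the parathyroid list, was at 11.6, 11.3 and 9.23 CPM in the WT libraries and at 103, 64.5 and 46.4 in the K146Q libraries in the pituitary (log2 difference 2.61, SE 0.24, adjusted p = 2.3e-04). Gad1, a GABA-synthesising enzyme kept in the hypothalamic neuron list, was at 0.756, 0.229 and 0.684 CPM in the WT libraries and at 34.3, 11.3 and 3.36 in the K146Q libraries there (log2 difference 3.504, SE 0.63, adjusted p = 0.00793). Hapln1, a link protein of hyaluronan matrices, was at 24.1, 23.5 and 25.97 CPM in the WT libraries and at 1.03, 1.07 and 2.81 in the K146Q libraries (log2 difference -3.64, SE 0.26, adjusted p = 8.7e-05). None of these genes overlapped between the genotypes. Of the 5 folliculostellate and pituitary stem cell genes in the thyroid, Cdh1 rose and S100b and Fxyd1 fell (log2 differences 0.53, -1.09 and -1.295), beside 19.7% of all genes rising and 18.1% falling. Anterior pituitary markers had no call in the thyroid, with sums of 594, 172 and 137 CPM in the WT libraries and 99.7, 122 and 155 in the K146Q libraries, and Gh was the most abundant. The hypothalamic neuron list had 1 of 7 genes tested in the thyroid, Gad1, and it was not called (0.41).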
